A study of Mus musculus with 6 samples.

Results

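Dendritic cells were chosen by the UMI counts of 17 genes in 6 single-cell libraries of mouse melanoma tumours, and 150 of 43843 barcodes within the quality limits (0.342%) met the rule. A barcode stands for a droplet taken to hold 1 cell, and a UMI is a counted molecule. A member had at least 500 UMIs, at least 300 genes and at most 20% mitochondrial UMIs. It also had at least 5 UMIs of the class II genes Cd74, H2-Aa, H2-Ab1 and H2-Eb1 together, and at least 2 UMIs of Flt3, Ccr7, Ccl22, Xcr1, Clec9a, Cd209a and Zbtb46 together. At most 1 UMI of C1qa, C1qb and C1qc and no UMI of Cd3e, Cd79a and Ms4a1 was allowed, to limit macrophages and lymphocytes. Such cells in which these genes went uncounted can still pass. Members with a Ccr7 UMI are called mature here (42), those with Xcr1 or Clec9a and no Ccr7 are called cDC1 (12), and the other 96 are called the remaining members. The levels of these rule genes chose the cells and are given only as a description.

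The tumours came from the murine melanoma line Yumm5.2 and grew in C57BL/6 mice after 350000 cells had been placed under the skin of the right flank, and were taken at 0.5 cm3. Every line carried a hairpin RNA against Cdkn2a, controls included, together with a control hairpin, hairpin 1 against Slc39a9 or hairpin 2 against Slc39a9, a gene for a zinc transporter. Mice received 200 µg of anti-PD1, which blocks a checkpoint receptor of T cells, or of IgG, 3 times a week by intraperitoneal injection. The 6 libraries were 1 for each line and treatment: knockdown IgG and knockdown anti-PD1 (n = 2 each, 1 per hairpin), and control IgG and control anti-PD1 (n = 1 each). How many tumours a library pooled is not given in the labels, so a p-value here measures the spread between these libraries. The control is 1 line, and a trait of that line cannot be told apart from an effect of the knockdown. Dendritic cells are cells of the host and carry no hairpin.

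Dendritic cells take up antigen in a tissue and present it to T cells, on class II molecules to CD4 T cells and on class I molecules to CD8 T cells. The cDC1 type is known for presenting antigen from dead cells on class I, and the cDC2 type for class II presentation. When they mature, dendritic cells gain the receptor CCR7, with which they move to lymph nodes, and stop making new class II transcripts.

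The libraries held between 58859821 and 83204249 UMIs. Slc39a9 in barcodes with neither Ptprc, the gene of the pan-leukocyte protein CD45, nor the class II genes of the rule had at least 21.4 CPM (counts scaled to a library sum of 1000000 UMIs) in both control libraries and at most 11.7 in the knockdown ones. The members had a median of 3431.5 UMIs and together between 61352 and 187901 UMIs per library, so that the sums tested below are small. Of the members 7 had over 15000 UMIs and held 26.3% of all member UMIs, and 3 of these 7 were marked as doublets by Scrublet. A fibroblast list of 10 genes was at 956 CPM in all members and at 132 CPM without these 7. Several results that turn on them are given with and without them, and the lists in mature cells only with them. Of 13041 barcode names 9539 occurred in 2 or more libraries and 139 members shared a name with a barcode of another library. Profiles of same-named barcodes correlated with a median of 0.793, and those of differently named barcodes with 0.794. The log UMI totals of same-named barcodes, however, correlated at 0.941 to 0.984 over pairs of libraries, and the reason was not tested.

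Near the limits of the rule, 46 members had exactly 2 UMIs of the dendritic marker genes and 83 barcodes with 1 such UMI lay outside. Of the members 130 had no C1q UMI and 20 had 1, while 3 barcodes with 2 C1q UMIs lay outside. At the class II limit 5 members had 5 UMIs and 5 barcodes with 4 lay outside. In all, 348 barcodes that met the other limits had 0 to 4 class II UMIs. Whether mature cells of low class II level are among them was not tested.

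Markers outside the rule were compared with the label. T and NK cell genes summed to 8.35 CPM in members, with 14 of 18 at 0. The macrophage list summed to 1353 CPM in members, against 18310 CPM in 3400 barcodes with the same quality limits and at least 5 C1q UMIs, called C1q macrophages here. A dendritic cell core list of 11 genes outside the rule differed little, at 2645 CPM in members and 2325 in C1q macrophages. By subset it was at 1378 CPM in mature cells and 3154 in the remaining members. The neutrophil list was higher in members (1320 CPM) than in C1q macrophages (710), and the monocyte list lower (1115 against 3448). Siglech, a marker of plasmacytoid dendritic cells, was found in 2 of 150 members, both among the remaining members. Of the plasmacytoid list of 11 genes, however, 8 had UMIs in members. The list summed to 674 CPM in members, 1055 in C1q macrophages and 848 in barcodes without Ptprc or class II UMIs. Of the genes that set members apart from C1q macrophages by level, Serpinb6b (367 against 2.60 mean CPM over libraries), Dpp4 (216 against 3.51) and Itgae (142 against 1.12) were higher in all 6 libraries. Among members, Serpinb6b was high in mature cells (1807 mean CPM) and low in the others (5.03). Apoe, a lipid carrier made by macrophages, was at 133 mean CPM in members and 10458 in macrophages.

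The share of dendritic cells among all barcodes within the quality limits was 0.336% in control IgG, 0.384% in control anti-PD1, 0.354% in hairpin 1 IgG, 0.243% in hairpin 1 anti-PD1, 0.414% in hairpin 2 IgG and 0.303% in hairpin 2 anti-PD1. The exact 95% binomial intervals, which cover counting error only, overlapped between all libraries, the widest running from 0.210% to 0.559% in hairpin 1 IgG. Knockdown libraries averaged 0.328% ± 0.073 (SD, n = 4) and control libraries 0.360% ± 0.034 (SD, n = 2), a difference of -0.032 percentage points (exact permutation test, two-sided p = 0.667). That test cannot go below 0.133 with 4 libraries against 2. Anti-PD1 libraries averaged 0.310% and IgG libraries 0.368%, a mean paired difference of -0.058 points (exact permutation test within lines, two-sided p = 0.5, smallest possible 0.25). Fewer dendritic cells and less RNA per cell cannot be told apart in such shares, since a cell needs enough UMIs to meet the rule. With each barcode thinned to 2000 UMIs before the rule, the share lay between 0.161% and 0.192% in the 6 libraries, with 0.175% in knockdown and 0.174% in control.

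Set against macrophages, the share of dendritic cells separated the lines. They made up 7.85% and 7.20% of dendritic cells and C1q macrophages together in control IgG and anti-PD1, 3.28% and 3.15% in hairpin 1, and 3.70% and 2.91% in hairpin 2. The groups did not overlap, and the difference of -4.27 points had the smallest p that 4 libraries against 2 allow (exact permutation test, two-sided p = 0.133). This denominator was chosen after seeing the data. The macrophages moved with it: they were 3.95% and 4.94% of all barcodes in control and between 7.46% and 10.8% in knockdown libraries, while the dendritic cell share of all barcodes overlapped.

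**Figure D1:**
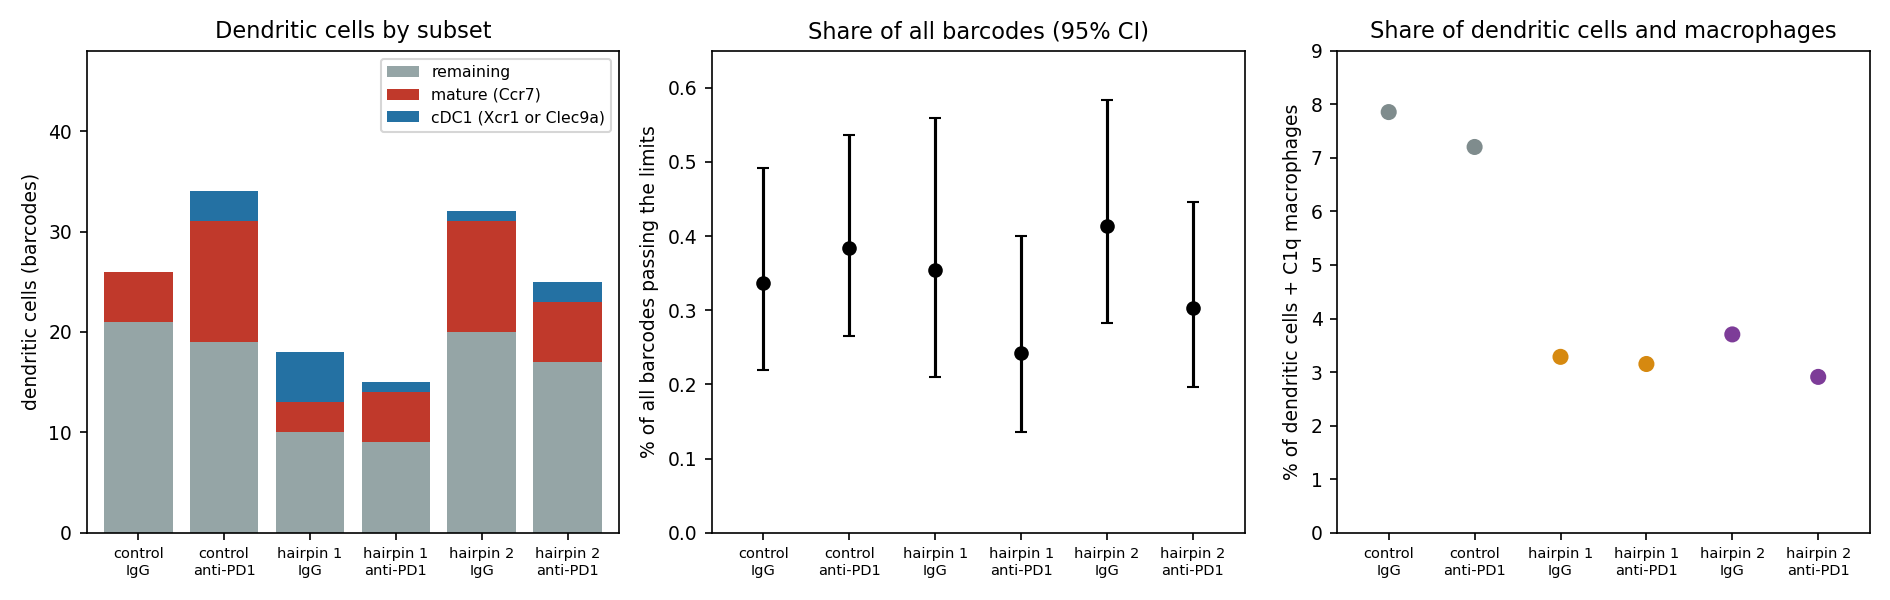
Left, number of dendritic cells per library (bars, stacked by subset); middle, their share of all barcodes in percent with exact 95% binomial intervals; right, their share of dendritic cells and C1q macrophages together in percent (1 point per library; grey control, orange hairpin 1, purple hairpin 2). The shares of all barcodes overlap between 0.243% and 0.414%, while on the right both control libraries lie above 7% and all knockdown libraries below 4%.

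Mature cells were found in every library, 5 of 26 members in control IgG, 12 of 34 in control anti-PD1, 3 of 18 in hairpin 1 IgG, 5 of 15 in hairpin 1 anti-PD1, 11 of 32 in hairpin 2 IgG and 6 of 25 in hairpin 2 anti-PD1. These are 19.2%, 35.3%, 16.7%, 33.3%, 34.4% and 24.0% of the members, with exact 95% intervals as wide as 11.8% to 61.6% in hairpin 1 anti-PD1. The share averaged 27.1% ± 8.37 (SD, n = 4) in knockdown and 27.3% ± 11.4 (SD, n = 2) in control (exact permutation test, two-sided p = 0.933). With anti-PD1 it was higher in 2 of 3 lines, by a mean of 7.45 points (exact permutation test within lines, two-sided p = 0.5). Among the 8 to 12 members per library that met the rule after thinning to 2000 UMIs, the knockdown difference was -15.8 points (exact permutation test, two-sided p = 0.267) and the anti-PD1 difference 21.3 points (p = 0.25). Among the 113 members of at least 2000 UMIs, 11 to 25 per library, with subsets taken from the thinned counts, these were -4.76 points (exact permutation test, two-sided p = 0.667) and 6.55 points (p = 1). The cDC1 counts were 0, 3, 5, 1, 1 and 2 in the same order, and for the 0 of 26 in control IgG the exact 95% interval reaches 13.2%, where 3 cells of 26, the limit used for a count of 0, would be 11.5%. The knockdown difference in the cDC1 share was 6.98 points (exact permutation test, two-sided p = 0.533), with 27.8% in hairpin 1 IgG as the highest value. The anti-PD1 difference was -2.47 points (exact permutation test within lines, two-sided p = 1).

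The mature cells carried the genes of dendritic cells that leave a tissue. Subset levels are described without a test, because the subsets were made from the same cells. Fscn1, which bundles actin in dendritic cell processes, was at 2763 mean CPM over libraries in mature and 34.6 in the other members. Serpinb6b, a protease inhibitor gene, was at 1807 against 5.03 mean CPM, Samsn1 at 1316 against 66.2, and Il4i1, a secreted amino acid oxidase, at 1013 against 19.8. Ccl5, a chemokine for T cells, was at 752 against 13.5 mean CPM, and Serpinb9, which inhibits granzyme B, at 865 against 18.6. Each of these was higher in mature cells in 6 of 6 libraries.

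Cells with a Ccr7 UMI also shared a large part of a list of 37 mature genes outside the rule. A mature cell had UMIs of a median of 20.5 of them (5 to 29), a cDC1 cell of 4.5 (1 to 7) and a remaining member of 7 (0 to 15). Thinned to 2000 UMIs per cell, the medians were 18, 3 and 4, in the same order. By mean CPM over libraries 34 of 37 were higher in mature cells than in the remaining members. Ccl22, a rule gene and a chemokine for CCR4-bearing T cells, was found in 32 of 42 mature cells, and Flt3, the receptor for the dendritic cell growth factor, in 30 of 42. Of the 14 remaining members with Ccl22 but no Ccr7, 0 had an Fscn1 UMI and their median was 9 of the 37 genes.

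Of 19 genes for T cell stimulation and checkpoint ligands, 12 had a higher mean CPM over libraries in mature cells and 7 in the remaining members. Cd274, which encodes the PD-1 ligand PD-L1, had UMIs in 30 of 42 mature cells, at 438 pooled CPM (349 to 570 over libraries), against 43.8 in the remaining members and 69.6 in C1q macrophages. The library ranges of mature cells and of remaining members (20.8 to 83.7 CPM) did not overlap. Cd40, the receptor for help from CD4 T cells, was at 277 CPM in mature cells and 39.6 in the remaining members, and Cd83 at 757 against 217. The costimulatory gene Cd86 was at 485 CPM in mature cells and 605 in the remaining members, with overlapping library ranges. Stat4, which carries the interleukin 12 signal, was at 423 against 50.0 CPM.

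**Figure D2:**
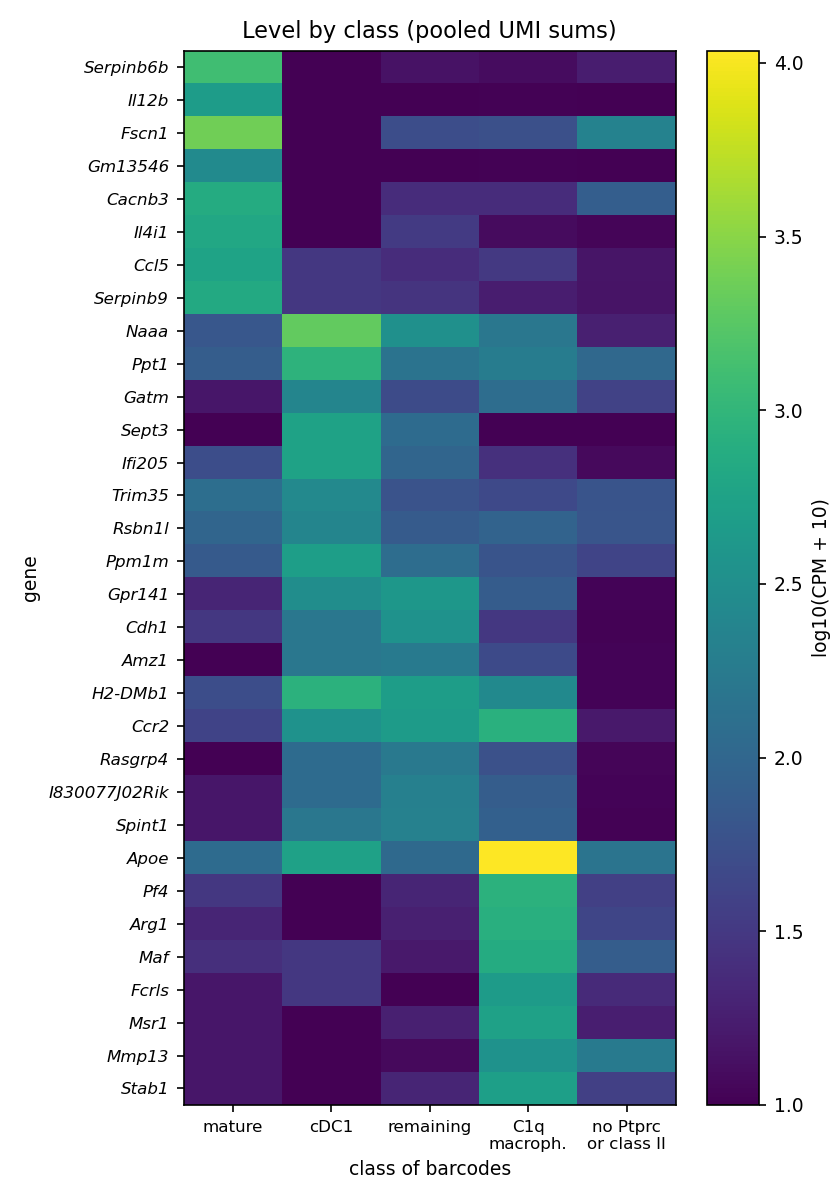
Level of genes (rows) in mature, cDC1 and remaining members, in C1q macrophages and in barcodes without Ptprc or class II UMIs (columns), as log10(CPM + 10) of UMI sums pooled over the 6 libraries. The rows are the first 8 genes by ratio of mean CPM of 4 contrasts between these classes, and Serpinb6b and Fscn1 stand high in mature cells, Naaa in cDC1 and Apoe in macrophages.

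Class II transcripts were scarce in the mature cells. The 4 class II genes of the rule made up a median of 0.581% of the UMIs of a mature cell (0.0378% to 10.1%), 4.95% of a cDC1 cell and 5.48% of a remaining member. Among genes outside the rule, H2-DMb1, a chain of the peptide-loading helper of class II, was at 20.7 mean CPM in mature and 551 in the other members. H2-DMb2 was at 9.70 against 311 mean CPM, and Ccr2, a chemokine receptor of monocytes and their progeny, at 18.0 against 497. Ciita, the master regulator of class II transcription, was found in 3 of 42 mature cells and 77 of 96 remaining members. H2-Oa was at 0 CPM in mature cells and 119 in the remaining members. H2-Eb2 ran the other way, at 205 mean CPM in mature and 1.58 in the other members, and was higher in mature cells in 6 of 6 libraries.

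**Figure D3:**
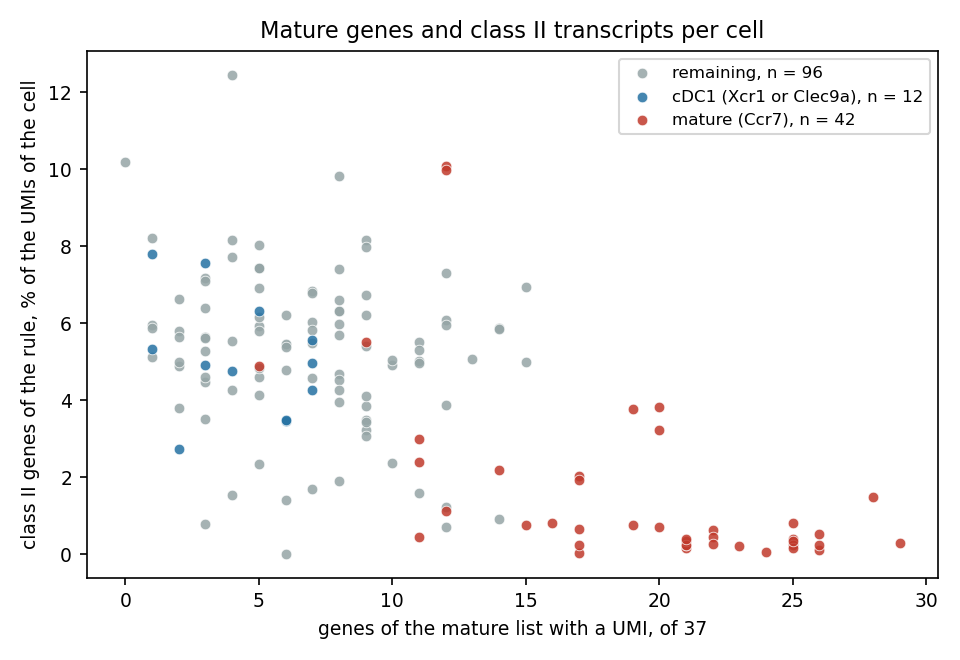
Each point is 1 of the 150 dendritic cells, by the number of mature-list genes with a UMI (x, of 37) and the share of its UMIs from the 4 class II genes of the rule (y, percent). Mature cells (red) lie mostly to the right and near 0%, with medians of 20.5 genes and 0.581%, and 3 subsets are coloured as in the legend.

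The start regions of these genes are shown because members of 1 family had opposite levels in mature cells. The Y box of class II promoters was searched as CTGATTGG on both strands in the 250 bases before each start. It was found in 4 of 11 genes of the MHC class II list with a promoter in the RefSeq table, and in 3.83% of 32851 promoters. The list includes Ctss, Ifi30 and Lgmn, which do not encode class II chains and do not hold the Y box. H2-DMb1 and H2-DMb2, low in mature cells, do not hold the Y box either, nor do H2-DMa and H2-Ob. H2-Aa, H2-Eb1 and H2-Oa, low in mature cells, hold it, and so does H2-Eb2, high in them. Each stretch of 120 bases ends at the base before the gene's start on the gene's strand, from RefSeq on GRCm38.p6, and the capitals mark the pattern. H2-Aa lies on chr17:34287824-34287943 (minus strand), H2-Eb1 on chr17:34305747-34305866 (plus), H2-Oa on chr17:34092259-34092378 (plus) and H2-Eb2 on chr17:34325555-34325674 (plus).
H2-Aa: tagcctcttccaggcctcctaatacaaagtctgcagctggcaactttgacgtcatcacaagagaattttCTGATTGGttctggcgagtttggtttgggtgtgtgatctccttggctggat
H2-Eb1: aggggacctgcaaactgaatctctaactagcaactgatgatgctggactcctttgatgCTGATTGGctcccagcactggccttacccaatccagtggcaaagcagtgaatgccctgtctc
H2-Oa: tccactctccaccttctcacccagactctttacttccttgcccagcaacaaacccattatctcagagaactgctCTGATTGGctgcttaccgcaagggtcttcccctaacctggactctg
H2-Eb2: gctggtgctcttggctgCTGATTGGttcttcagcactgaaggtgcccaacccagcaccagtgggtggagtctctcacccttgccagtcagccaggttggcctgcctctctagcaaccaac

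The cDC1 cells, 12 in 5 libraries, carried the genes of cross-presenting dendritic cells. Irf8, the factor that directs cDC1 development, had UMIs in 11 of 12 at 2419 CPM, against 131 CPM in the remaining members. Wdfy4, which is needed for cross-presentation, was at 1740 against 288 CPM, and Tlr3, a sensor of double-stranded RNA, at 255 against 6.25. By mean CPM over the 5 libraries 16 of the 17 cDC1 genes outside the rule were higher than in the remaining members. Naaa, a lysosomal amidase gene, was at 2293 against 248 mean CPM and higher in 5 of 5 libraries with such cells.

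Of 16 cDC2 genes outside the rule, 12 had a higher mean CPM over libraries in the remaining members than in mature cells, 13 than in cDC1 and 12 than in C1q macrophages. The remaining members were not uniform, and of the 25 without Cd209a and Ccl22 only 9 had an Mgl2 UMI. Cd209a, a rule gene, was found in 60 of 96, and Mgl2, a lectin of cDC2 and some macrophages, in 62 of 96 at 1082 CPM, against 235 CPM in mature and 153 in C1q macrophages. Clec10a was at 223 CPM in the remaining members and 15.7 in mature cells. Il1b, which encodes interleukin 1 beta, had UMIs in 86 of 96. Mki67 or Top2a, genes of dividing cells, had UMIs in 5 of 42 mature, 3 of 12 cDC1 and 17 of 96 remaining members, and in 4, 3 and 12 without the 7 large members. Free RNA can add such UMIs, and its part was not tested.

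Knockdown was compared with control to ask how host dendritic cells differ in tumours with lowered Slc39a9. In sums over the members, edgeR's quasi-likelihood test called 0 of 3299 genes at an adjusted p under 0.05 (0%), and DESeq2 called 0. At an unadjusted p under 0.05 edgeR had 124 genes, 3.76% of those tested. No gene passed the test in these sums, and the values of the genes with the lowest p-values follow. Since these genes were picked by p-value, a lack of overlap between their groups adds no support. How many of all 3299 genes tested separate the groups in the same way was not counted.

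Il12b (ENSMUSG00000004296, protein-coding, mm10 chromosome 11, 44400063 to 44414033, plus strand) encodes the p40 subunit shared by interleukins 12 and 23. Its UMIs numbered 1 and 3 for the control line (IgG before anti-PD1), 7 and 11 for hairpin 1, and 10 and 58 for hairpin 2, or 9.78 and 16 CPM in control, 77.3 and 179 in the first and 67.6 and 451 in the second line. All knockdown libraries lay above both control libraries. The log2 fold change was 3.88 ± 0.70 (SE), with an edgeR adjusted p of 0.996 (unadjusted 0.000346). The UMIs came from 9 mature cells, 1 or 2 per library, and 1 cell of hairpin 2 anti-PD1 held 56 of the 58. That cell had no Fscn1 UMI. Over 10 alternative settings the log2 fold change ran from 2.74 to 4.22 and the adjusted p from 0.000314 to 0.999, and without either knockdown anti-PD1 library the gene did not pass the filter on low counts.

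Il4i1 had 137 and 53.2 CPM for the control line, 188 and 277 for hairpin 1, and 358 and 202 for hairpin 2, in the same order. The groups did not overlap, and the log2 fold change was 1.53 ± 0.45 (edgeR adjusted p 0.996). Cst3, which encodes cystatin C and is abundant in dendritic cells, had 4383 and 6173 CPM in the control line and 5727 to 11605 in the knockdown lines, which overlap (log2 0.75 ± 0.22). Actb was 0.47 ± 0.12 and Aff3 4.47 ± 1.26 on the log2 scale, the latter from 0 and 1 UMIs in the control line and 2 to 19 per knockdown library.

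Among the genes with the lowest p-values below 0 were Cxcl2, Plaur, Fosl2, Susd6 and Tk1. Cxcl2, a chemokine for neutrophils, had 450 and 452 CPM with the control hairpin, 221 and 212 with hairpin 1 and 149 and 148 with hairpin 2. Plaur, the urokinase receptor, had 431 and 335 CPM with the control hairpin and 130 to 188 with knockdown. Fosl2, an AP-1 factor, had 294 and 282 CPM with the control hairpin and 77.3 to 124 with knockdown. All 3 had both control libraries above every knockdown library, at -1.34 ± 0.31, -1.24 ± 0.29 and -1.41 ± 0.34 on the log2 scale (edgeR adjusted p 0.996 each). Susd6 had -2.15 ± 0.44 and Tk1 -3.57 ± 0.89, and the 34 Tk1 UMIs of control anti-PD1 came from 1 cell. Without hairpin 2 IgG, edgeR called 2 genes, and in the other fits that left out 1 library it called 0.

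**Figure D4:**
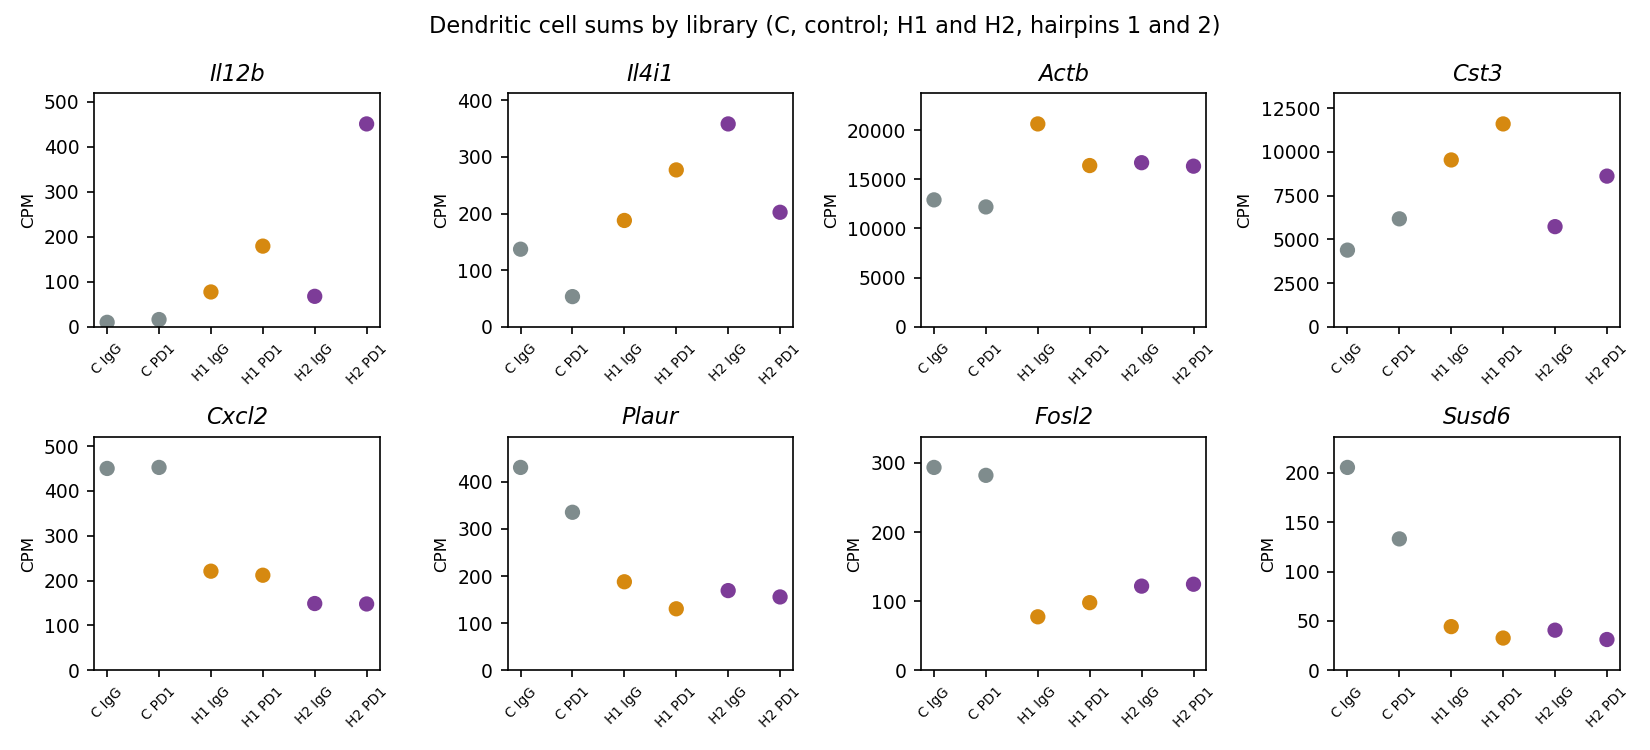
Level in CPM (y, linear from 0) of 8 genes in the dendritic cell sums of the 6 libraries (x; grey control, orange hairpin 1, purple hairpin 2; 1 point per library). Cxcl2, Plaur, Fosl2 and Susd6 lie lower and Il12b, Il4i1 and Actb higher in all knockdown libraries than in both control libraries, and none was called. The 8 genes were picked from those with the lowest p-values.

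Among the gene lists, 0 genes were called. Of 20 tested MHC class I and cross-presentation genes 19 had values above 0, with a median log2 fold change of 0.51 where all genes tested had 0.0035, and 4 had an unadjusted p under 0.05, against 3.76% of all genes. Psmb8, a subunit of the immunoproteasome, had 0.75 ± 0.28, and B2m, the class I light chain, had 949 and 995 CPM with the control hairpin and 1109 to 1568 with knockdown. Without the 7 large members it was 18 of 20 with a median of 0.35 and 2 genes at an unadjusted p under 0.05, and in the remaining members alone 15 of 18 with 0.35 and 0 such genes. H2-K1, H2-D1 and the H2-Q genes are close paralogs, so reads may be split between them. Of 7 type I interferon genes 7 had values above 0 (median 0.91), and of 7 genes of the class II list outside the rule 7 had (median 0.35). Without the 7 large members these were 6 of 6 (median 0.74) and 5 of 7 (median 0.26). Of 13 G2/M genes 12 were below 0 (median -0.87), but without the 7 large members 2 of 4 were.

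Of the other lists, 20 of 27 mature genes were above 0 (median 0.25; 16 of 27 and 0.03 without the large members), 8 of 10 cDC1 genes (median 0.36) and 7 of 9 cDC2 genes (median 0.12), the last turning to 3 of 9 and -0.05 without the large members. The dendritic cell core list turned likewise, from 6 of 8 (median 0.21) to 3 of 8 (median -0.08). In the remaining members alone the mature list had 4 of 13 above 0 (median -0.37) and the cDC1 list 2 of 7 (median -0.12). Interferon gamma response genes had 8 of 11 above 0 (median 0.50), 6 of 10 without the large members (median 0.22) and 2 of 7 in the remaining members alone (median -0.21). In mature cells alone, which include 2 of the 7 large members, 5 of 5 of them were above 0 (median 3.08). There the mature list had 23 of 26 above 0 (median 0.52), class I 9 of 10 (median 0.60) and chemokines 4 of 4 (median 1.36). T cell stimulation genes had 4 of 4 (median 0.67), cytokines 1 of 2 and G2/M genes 0 of 2. In all members T cell stimulation genes had 4 of 8 above 0 (median -0.08) and cytokines 3 of 5 (median 0.22). Pattern recognition receptors had 6 of 7 below 0 (median -0.34) and chemokines 5 of 9 (median -0.50). Monocyte genes had 4 of 5 below 0 (median -0.44) and fibroblast genes 3 of 3 (median -0.54), while in the remaining members alone the medians were -0.04 and 0.63. The macrophage list had 5 of 5 below 0 (median -0.88), and its part in the other values was not tested. Its summed level was 1223 and 1788 CPM with the control hairpin and 451 to 2252 with knockdown.

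Within mature cells alone, where 479 genes could be tested, edgeR called 0 (0%) and DESeq2 2, and 39 genes (8.14%) had an unadjusted p under 0.05. Psme2, a subunit of the proteasome activator PA28, had 568 and 337 CPM with the control hairpin, 1392 and 1997 with hairpin 1 and 1021 and 1155 with hairpin 2. These rest on 6, 29, 28, 19, 43 and 27 UMIs, and all knockdown libraries lay above both controls. Psme2 was picked by its p-value, and how many of the 479 genes separate likewise was not counted. The log2 fold change was 1.55 ± 0.46 (SE; edgeR adjusted p 0.558), with 1.18 to 1.73 and adjusted p-values of 0.156 to 0.985 over 12 alternative settings. On the same scale Psmb8 had 1.31 ± 0.43, Lcp1, an actin bundling gene of leukocytes, 1.72 ± 0.51, and Il12b 4.54 ± 1.03. On the lower side Il1b had -1.29 ± 0.44, mt-Nd1 -1.56 ± 0.47, mt-Nd2 -1.64 ± 0.53, Aqp1 -3.14 ± 1.04 and Tm4sf1 -4.15 ± 0.95. Of the mature cells of control anti-PD1, 1 held 50278 UMIs, with 0.0378% of them class II, and each other at most 6033. The values above include this cell. Over 12 alternative settings, the fit without the 2 large mature members included, Psmb8 ran from 0.76 to 1.68 and Lcp1 from 1.07 to 2.44. Il1b ran from -1.79 to -1.10 and mt-Nd1 from -1.94 to -0.52, and the part of this cell alone was not tested. Without the 2 large mature members edgeR called 0 of 443 genes, and 23 had an unadjusted p under 0.05. Without control IgG edgeR called 3 genes in mature cells, and without hairpin 2 IgG 11.

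A single model over both classes asked whether the knockdown difference in dendritic cells departs from that in C1q macrophages. It called 2 of 10353 genes (0.0193%), Tk1 and Ctsk, named here after their values were seen, and DESeq2 called 0. Ctsk, a protease of osteoclasts and macrophages, differed by -5.67 ± 0.98 (edgeR adjusted p 0.00442), and Tk1, an enzyme of nucleotide supply in dividing cells, by -4.77 ± 0.82 (adjusted p 0.00442). In dendritic cells Ctsk had 118 UMIs in control anti-PD1, all from 1 cell, and 0 or 1 in each other library. In macrophages Ctsk had 200 and 155 CPM with the control hairpin, and with knockdown it ran from 12.5 to 433. Without the 7 large members Tk1 had -2.28 (adjusted p 1), and Ctsk had -6.56 (adjusted p 4.71e-13). Over 12 alternative settings the adjusted p of Ctsk ran from 4.71e-13 to 1, under 0.05 in 9, and that of Tk1 from 1.36e-05 to 1, under 0.05 in 8. The model called 14 genes without these members. Leaving out control IgG gave 38 called genes and leaving out hairpin 2 IgG gave 56, while the other hairpin 2 library left out gave 6, hairpin 1 IgG 5 and the other hairpin 1 library 1. In the macrophage sums alone the knockdown comparison called 1 of 11438 genes in edgeR (0.00874%) and 35 in DESeq2 (0.306%).

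Anti-PD1 was compared with IgG across the 3 lines. edgeR called 0 of 3299 genes (0%), DESeq2 0, and the fit with the line as replicate block 0, with 87 (2.64%) and, under the block, 116 genes at an unadjusted p under 0.05. Mmp12, a macrophage elastase, was at 166, 88.4 and 81.1 CPM with IgG and 266, 522 and 241 CPM with anti-PD1 in control, hairpin 1 and hairpin 2, higher in 3 of 3 lines (log2 1.62 ± 0.44, edgeR adjusted p 1.00). Il12b was higher in 3 of 3 lines as well (2.04 ± 0.52, adjusted p 1.00). Odc1, the first enzyme of polyamine synthesis, had 2.08 ± 0.51, Cryab 3.92 ± 0.86 and Hbegf 3.48 ± 0.96. Cryab in hairpin 2 anti-PD1 came from 1 cell. Trib1 (-1.09 ± 0.31), Atp6v0d1 (-1.24 ± 0.35), Dennd5a (-1.05 ± 0.33) and Clip1 (-1.03 ± 0.35) were lower in 3 of 3 lines, and Dcn, a fibroblast gene, had -3.86 ± 1.14. Without the 7 large members Odc1 had 0.60 ± 0.44, and Cryab, Hbegf and Dcn did not pass the filter on low counts. In that fit Mmp12 had 1.60, Il12b 2.02, Trib1 -0.90, Atp6v0d1 -1.19, Dennd5a -0.95 and Clip1 -1.01. Of 13 G2/M genes 13 were above 0 (median 1.08), but without the 7 large members 4 could be tested and 3 were above 0 (median 0.20). Of 7 genes of the class II list 6 were below 0 (median -0.27), where all genes had 0.0097. Without the large members 6 of 7 were below 0 as well (median -0.12). A test of whether the knockdown difference depends on treatment called 0 of 4356 genes in edgeR, with 129 (2.96%) at an unadjusted p under 0.05.

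The lines with hairpin 2 and hairpin 1 against the same gene were also compared. edgeR called 0 of 3299 genes (0%), with 325 (9.85%) at an unadjusted p under 0.05, and DESeq2 called 8. The genes with the lowest p-values were Cpe (4.49 ± 0.62), Tm4sf1 (4.26 ± 0.61), Igfbp3 (6.18 ± 0.89), Ecm1 (7.81 ± 1.05) and Sparc (4.79 ± 0.73), higher in hairpin 2 (edgeR adjusted p 0.0527 to 0.0615). Leaving out control anti-PD1 gave 72 called genes and leaving out control IgG 58. Leaving out a hairpin library left 1 library of that hairpin, and the count of called genes then depended on which library was left out. The fibroblast list moved with Cpe and the other genes higher in hairpin 2, with 3 of 3 genes above 0 (median 3.46). The hairpin 2 libraries held 4 of the 7 large members and the hairpin 1 libraries 0. Without the 7 large members edgeR called 1 of 2472 genes. In that fit Cpe, Tm4sf1, Igfbp3 and Ecm1 did not pass the filter on low counts, nor did any gene of the fibroblast list. Sparc ran from 2.86 to 5.86 over 12 alternative settings, that fit included. Lower in hairpin 2 were Rgs10 (-1.99 ± 0.37), Lyz2 (-2.53 ± 0.49), Creb5 (-2.08 ± 0.40), Apoe (-3.06 ± 0.71) and P2ry14 (-2.06 ± 0.51). Lyz2 and Apoe, genes of macrophages, were at 519 and 212 CPM and at 298 and 130 CPM in hairpin 1, and at 54.1 and 62.2 CPM and at 20.3 and 31.1 CPM in hairpin 2.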

How the data were processed

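The authors deposited UMI counts per gene and barcode, made with Cell Ranger 7.0.1 on mm10 per the submitters' processing notes, in matrices limited to called cells. Per the labels' protocols, tumours were digested with collagenase and dispase. The members, gene lists and comparisons were chosen with earlier results of these data known. Doublets were marked with Scrublet (scanpy 1.11.5) and kept in the main results. Within each library the UMI counts of a class were added up, and CPM are these sums scaled to 1000000. Sums were tested with edgeR 4.0.16 (R 4.3.3; TMM, filterByExpr, quasi-likelihood F test, Benjamini-Hochberg over all genes tested), with genotype and treatment, line and treatment, or library, class and their interactions as terms, after a test on simulated data. The standard error is the log2 fold change divided by the root of F. Shares were compared with exact permutation tests over libraries. The line pairs the treatment libraries, since each line gave 1 library per treatment. DESeq2 1.42.0, RLE scaling, no filter on low counts, each library left out, doublets removed, a stricter rule (3 dendritic marker UMIs, no C1q UMI), at most 10% mitochondrial UMIs, thinning to 2000 UMIs and other denominators were alternatives. Leaving out members of over 15000 UMIs, the remaining members alone, the members of at least 2000 UMIs and the denominator with macrophages were added after seeing the data. Named genes had a mean of at least 50 CPM over the 6 sums and were outside the rule. They were the called genes with the largest changes or, where fewer than 5 were called in a direction, the 5 with the lowest p; 1 gene so named is not reported here. Subset genes were the first 15 by log2 ratio of mean CPM (pseudocount of 10 CPM) that were higher in every library with both classes. Positions are from GENCODE M21 and promoters from RefSeq. Of the listed symbols, the expression of Amica1, Cxcl11, Ifi30, Mx2, Cgas and Clec7a was not used here, and Sting1 was matched as Tmem173.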

Additional observations from a re-analysis of the deposited data

Results flagged for a closer look

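The anti-PD1 difference in the dendritic cell share of all barcodes had opposite signs in the control line and in both knockdown lines. It was 0.0474 percentage points in the control line, -0.111 in the hairpin 1 line and -0.111 in the hairpin 2 line. The difference between the lines was not tested, since each line has 1 library per treatment. The exact binomial intervals of the libraries overlapped.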

How the results depend on the processing

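Of 68 share differences under alternatives 9 changed sign. Thinned to 2000 UMIs, the knockdown difference in the dendritic cell share was 0.000841 points, and over barcodes with a Ptprc UMI it was 0.00723. Under the stricter rule the anti-PD1 difference was 0.00336 points in the dendritic cell share and 1.67 in the cDC1 share. Leaving out 1 library, the knockdown difference ran from -0.0602 to -0.00328 points in the dendritic cell share, from -8.20 to 7.86 in the mature share and from 1.52 to 11.4 in the cDC1 share, and the anti-PD1 difference from -0.111 to -0.0318, from 2.84 to 16.4 and from -8.12 to 6.85. Without the filter on low counts, edgeR called 13 genes for the knockdown, 26 for anti-PD1, 112 for hairpin 2 against 1, 2 in mature cells and 15 in the class comparison. DESeq2 called 8 for hairpin 2 against 1, 2 in mature cells and 0 in the class comparison. Without doublets hairpin 2 against 1 had 3. The stricter rule gave 2 in mature cells and 26 in the class comparison. Without members of over 15000 UMIs hairpin 2 against 1 had 1 and the class comparison 14. Leaving out 1 library, counts ran from 0 to 2 for the knockdown, 0 to 133 for hairpin 2 against 1, 0 to 11 in mature cells and 1 to 56 in the class comparison. The replicate block by line called 0 genes for anti-PD1 and changed no call. Of 460 values of named genes under alternatives 394 kept their side of the threshold, 66 passed it and 0 changed sign. The cause of these shifts was not tested. The sums rest on 150 cells.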
